A study of Mus musculus with 12 samples.

Results

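Asns, which encodes asparagine synthetase, and 8 genes of the ATF4 pathway and of serine and glycine synthesis were followed in splenic B cells of mice with a conditional knockout (CKO) of Zbtb24 in blood-forming cells. The 9 genes are Asns, Atf4, Ddit3, Chac1, Trib3, Psat1, Phgdh, Shmt2 and Sesn2, and they were matched by gene symbol among the 46078 genes counted. Asns was chosen by its measured level, which was higher in follicular CKO than in follicular control libraries and was called there in a fit with the replicate number as a block. That fit called 0.141% of all genes. With neither the block nor any other change 0.09% were called and Asns was not, whereas with no filter on low counts, also unblocked, 0.462% were called and Asns was among them (edgeR adjusted p = 0.0228). The other genes were added as members of the same pathway, with earlier results of these data known. The follicular genotype values are therefore given below as a description.

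Follicular B cells (FO), which recirculate through lymphoid follicles, and the sessile B cells of the marginal zone (MZ) were isolated with a magnetic kit from C57BL/6 spleens at 8 to 12 weeks of age, and their RNA was sequenced, with 3 libraries in each of the FO CKO, FO Control, MZ CKO and MZ Control groups. The VAVcre transgene, with Cre active across blood-forming cells, was present in every mouse, and the CKO mice (genotype label Zbtb24-/-) also carried the conditional Zbtb24 allele, whereas the genotype label of the controls reads WT. Cre acts in all blood lineages of these mice, so the deletion is not limited to B cells. Each library bears an animal number, and the same 6 numbers occur among the FO and the MZ libraries, so a pair of libraries with 1 number was taken to come from 1 mouse.

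Gene counts per library summed to between 36340116 and 44629250. Zbtb24, the deleted gene, was still counted at 47 to 49.9 CPM (counts scaled to a common library size) in FO CKO libraries against 60.9 to 62.2 CPM in FO Control libraries, and at 41.6 to 46.2 CPM in MZ CKO against 49.1 to 54.3 CPM in MZ Control libraries. Counts over the whole gene do not part the deleted exons from the rest. Of the markers that tell the cells apart, 8 of 8 MZ markers were higher and 5 of 6 FO markers lower in MZ than in FO B cells of both genotypes by edgeR. The sixth FO marker, Cxcr5, went the other way, at 683 CPM in MZ CKO against 507 CPM in FO CKO and 619 CPM in MZ Control against 474 CPM in FO Control libraries. Cr2, the complement receptor abundant on MZ B cells, averaged 3170 CPM in MZ CKO and 3310 CPM in MZ Control libraries, with 1040 CPM in FO CKO and 843 CPM in FO Control libraries. Fcer2a, the IgE receptor CD23 of FO B cells, averaged 81.3 CPM in MZ CKO and 69.7 CPM in MZ Control libraries, with 548 CPM in FO CKO and 557 CPM in FO Control libraries. Markers of other cells were present as well. The 8 T cell markers summed to 168 to 397 CPM per library and the 9 neutrophil markers to 45.3 to 397 CPM. None of either list was at 0 in any group. Macrophage and monocyte markers summed to 163 to 483 CPM, and erythroid and platelet markers to 7.96 to 258 CPM. NK cell markers summed to 35.2 to 102 CPM and dendritic cell markers to 40.2 to 80.7 CPM. In such bulk samples fewer cells of a type and less RNA per cell cannot be told apart.

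ATF4 is a transcription factor of the integrated stress response. Kinases that sense uncharged tRNA, misfolded protein in the endoplasmic reticulum, heme shortage or double-stranded RNA phosphorylate the initiation factor eIF2, general translation slows, and the Atf4 mRNA is translated more. ATF4 then pairs with C/EBP proteins on promoters of genes for amino acid synthesis, transport and tRNA charging. Much of its control is thus at the level of translation, which messenger RNA counts do not read.

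The promoters of 3 of the genes are printed because they hold the composite site that ATF4 and C/EBP proteins bind, the C/EBP-ATF response element. The windows are those of RefSeq on build GRCm38.p6, from 250 bases before to 50 bases after the annotated start, read 5′ to 3′ on the strand of the gene. They lie at chr6:7693160-7693459 on the minus strand for Asns, chr2:119350992-119351291 on the plus strand for Chac1 and chr2:152344011-152344310 on the minus strand for Trib3. Capitals mark matches to the core of that element, TGATGNAA on either strand, and in Asns also the downstream GTTACA, the second site of its nutrient-sensing unit.
Asns: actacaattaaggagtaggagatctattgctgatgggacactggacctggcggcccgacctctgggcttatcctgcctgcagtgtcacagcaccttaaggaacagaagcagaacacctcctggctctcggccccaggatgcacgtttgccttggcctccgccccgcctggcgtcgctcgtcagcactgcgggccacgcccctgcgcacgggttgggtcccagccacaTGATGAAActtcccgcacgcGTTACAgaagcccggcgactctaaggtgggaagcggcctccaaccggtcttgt
Chac1: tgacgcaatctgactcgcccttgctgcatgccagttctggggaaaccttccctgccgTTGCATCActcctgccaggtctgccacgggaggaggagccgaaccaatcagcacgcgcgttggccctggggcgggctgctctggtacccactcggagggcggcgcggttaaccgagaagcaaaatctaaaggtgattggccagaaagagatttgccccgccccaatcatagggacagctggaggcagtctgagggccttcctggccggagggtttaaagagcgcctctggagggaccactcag
Trib3: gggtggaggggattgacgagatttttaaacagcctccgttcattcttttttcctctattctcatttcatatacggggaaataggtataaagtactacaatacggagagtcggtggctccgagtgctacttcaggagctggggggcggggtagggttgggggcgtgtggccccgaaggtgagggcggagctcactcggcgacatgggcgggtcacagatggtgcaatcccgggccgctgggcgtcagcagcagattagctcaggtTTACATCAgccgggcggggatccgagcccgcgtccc

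The core element began at position -23 of the Asns window, counted from the start site, at -193 in Chac1 and at 15 in Trib3, the last 2 on the opposite strand. It was found in 3 of the 10 windows of the 9 genes (Psat1 has 2 windows) and in 3.97% of all 32851 RefSeq windows. GTTACA, at position -3 of Asns, was found in 1 of the 10 windows and in 8.25% of all windows. The palindrome TGACGTCA, a site of CREB and ATF factors, was in 0 of the 10 and in 1.79% of all windows. CCAGGACCT, the core of a consensus reported for ZBTB24, was likewise in 0 of the 10 and in 0.584% of all windows. Both strands were searched, and these are letter matches within the windows only.

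Levels of the 9 genes differed widely. Per kilobase of merged exons, Atf4 averaged 98.5 CPM over the 12 libraries, Phgdh 41.6, Shmt2 31, Ddit3 14, Sesn2 6.47, Psat1 6.06, Asns 4.08, Trib3 0.396 and Chac1 0.148. Asns thus stood below the serine synthesis enzymes of these cells, and Chac1, with 116 counts in all 12 libraries, was close to undetected. On the opposite strand Ddit3 overlaps Mars and Gm4189, Shmt2 overlaps Ndufa4l2, and Psat1 overlaps the pseudogene Gm3329. On the same strand Sesn2 overlaps Gm12981, and Ddit3 overlaps another annotated entry of its own name. The sources used here give no strand setting for the counting, so shared reads of the opposite-strand pairs are uncertain. A strand setting would not part the reads of the same-strand pairs, which are uncertain too.

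Asns makes asparagine from aspartate and glutamine. The gene (ENSMUSG00000029752) lies on chromosome 6 from 7675169 to 7693254 on the minus strand, and its merged exons span 2735 bases. In FO B cells Asns was at 9.6, 17.4 and 13 CPM in CKO libraries, against 3.81, 8.32 and 7.37 CPM in Control libraries. The lowest CKO library stood above the highest Control library. The log2 difference between CKO and Control libraries was 1.04 (SE 0.36), or 2.05-fold, and ranged from 0.77 to 1.25 when single libraries were left out. In MZ B cells, whose libraries did not enter that choice, Asns was at 14.6, 18.7 and 18.5 CPM in CKO libraries, against 3.39, 8.59 and 10.5 CPM in Control libraries. The groups did not overlap here either. The MZ libraries come from the same mice, however, so they are not new animals.

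**Figure D1:**
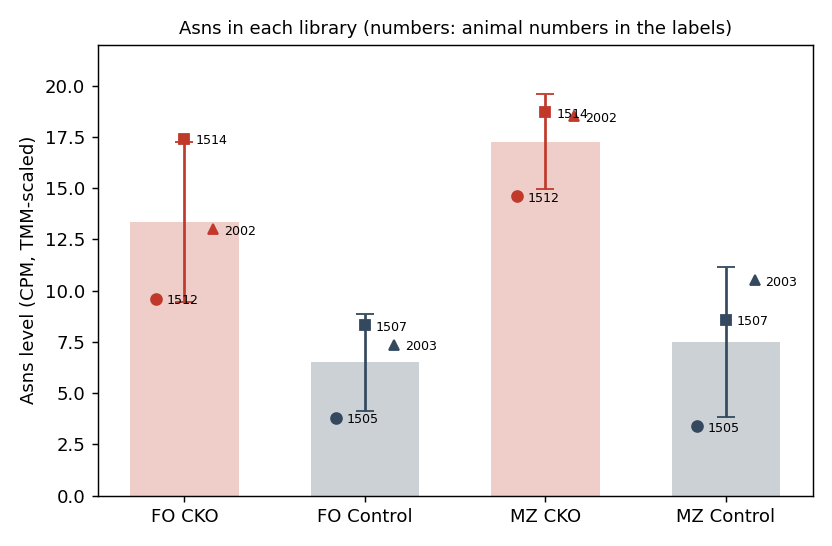
Asns level in CPM (TMM-scaled, linear axis from 0) in each of the 12 libraries. Points are libraries labelled with their animal number, bars are means and error bars are SD of 3. CKO libraries lay between 9.6 and 18.7 CPM and Control libraries between 3.39 and 10.5 CPM, with animal 1505 lowest in both cell types.

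Asns averaged 17.3 ± 2.35 CPM in MZ CKO, 13.3 ± 3.9 CPM in FO CKO, 7.49 ± 3.68 CPM in MZ Control and 6.5 ± 2.38 CPM in FO Control libraries (SD, n = 3 each). MZ CKO and FO CKO libraries overlapped in this order, and so did MZ Control and FO Control libraries. The MZ difference between genotypes was log2 1.21 (SE 0.43, 2.31-fold, approximate 95% interval 0.36 to 2.06). It did not pass the edgeR quasi-likelihood test after Benjamini-Hochberg adjustment over all 17658 genes (adjusted p = 1, unadjusted p = 0.03761). DESeq2 (adjusted p = 0.9844) and limma-voom (1) did not call it, and over all alternatives the adjusted p ranged from 0.1585 to 1. Without MZ Control replicate 1 the difference was log2 0.86 (adjusted p = 0.4374).

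The order of the animals was shared in part between the cell types. Animal 1505 had the lowest Asns in both cell types, at 3.81 CPM in FO and 3.39 CPM in MZ B cells. Control animals 1507 and 2003 changed order, at 8.32 and 7.37 CPM in FO and 8.59 and 10.5 CPM in MZ B cells. Among CKO mice, animal 1512 was the lowest in both (9.6 and 14.6 CPM) and animal 1514 the highest in both (17.4 and 18.7 CPM). The summed neutrophil markers, with 9 of 9 counted in every group, were 119, 397 and 176 CPM in FO CKO and 73.5, 191 and 118 CPM in FO Control libraries. The MZ sums were 68.6, 240 and 99.2 CPM in CKO and 45.3, 139 and 57.4 CPM in Control libraries. Animal 1505 was thus lowest and animal 1514 highest in these sums too. The 9 neutrophil markers had a median CKO over Control log2 of 0.99 in FO and 1.16 in MZ B cells, all of them positive. With the replicate number as a block, as in the fit that called Asns, the FO median was 0.87 and 2 of 9 markers were called higher. With that block in MZ B cells the median was 1.08 and 5 of 9 were called higher. Without the block edgeR called 0 of the 9 markers in either cell type. Of all genes, 0.101% in FO and 0.227% in MZ B cells were called higher with the block. The block joins different animals, and MZ libraries of replicate number 1 did not deviate together from their group means (r = -0.108). The MZ block called none of the 9 genes followed here, Asns included. The medians without the block fell when animal 1514 was left out. Without FO CKO replicate 2 the FO median was 0.23, and without MZ CKO replicate 2 the MZ median was 0.08. In each, 6 of 9 were positive. Without MZ Control replicate 2 the MZ median was 2.22, and without replicate 1 it was 0.77. Asns was at log2 0.80 in FO and 1.15 in MZ B cells without the libraries of animal 1514. The part of neutrophil or macrophage RNA in the Asns values was not tested.

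Atf4 itself, the regulator, was at 258, 254 and 270 CPM in FO CKO libraries, against 278, 251 and 225 CPM in FO Control libraries. The MZ levels were 193, 212 and 219 CPM in CKO libraries, against 224, 200 and 203 CPM in Control libraries. The genotypes overlapped in both cell types. In MZ B cells the log2 difference was 0 (SE 0.08, 95% interval -0.16 to 0.16; edgeR adjusted p = 1).

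Ddit3 encodes CHOP, a transcription factor induced under lasting stress. It was at 25.4, 25.5 and 28 CPM in FO CKO libraries, against 24.4, 26.6 and 23.3 CPM in FO Control libraries, and at 19.7, 24.2 and 24 CPM in MZ CKO, against 23, 21.9 and 21.5 CPM in MZ Control libraries. The genotypes overlapped in each cell type, with a log2 difference of 0.04 (SE 0.11, 95% interval -0.17 to 0.24; edgeR adjusted p = 1) in MZ B cells.

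Chac1, which encodes an enzyme that breaks down glutathione, had 12, 17 and 11 counts in FO CKO libraries, against 6, 8 and 11 counts in FO Control libraries. It had 8, 13 and 13 counts in MZ CKO libraries, against 8, 5 and 4 in MZ Control libraries. The FO libraries met at 11 counts, although the CKO libraries were all higher once scaled to library size, and the MZ libraries met at 8. In MZ B cells the gene did not pass the filter on low counts, so it has no test in the main fit there. With no filter its MZ log2 difference was 1.02 (edgeR adjusted p = 0.9078).

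Trib3, which encodes a pseudokinase that restrains ATF4 signalling, was at 1.21, 0.884 and 1.46 CPM in FO CKO libraries, against 1.09, 1.15 and 0.855 CPM in FO Control libraries. It was at 0.593, 0.583 and 0.716 CPM in MZ CKO libraries, against 0.263, 0.658 and 0.619 CPM in MZ Control libraries. The genotypes overlapped in both. The MZ log2 difference of 0.30 (SE 0.38, edgeR adjusted p = 1) was -0.02 without MZ Control replicate 1, the library of animal 1505.

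Phgdh, the enzyme of the first step of serine synthesis from a glycolysis intermediate, was at 135, 146 and 113 CPM in MZ CKO libraries, against 102, 109 and 110 CPM in MZ Control libraries. The MZ groups did not overlap. The MZ log2 difference was 0.30 (SE 0.09, 1.23-fold) and did not pass the edgeR test (adjusted p = 1, unadjusted p = 0.008067; adjusted range over the alternatives 0.08881 to 1). Phgdh in FO B cells was at 85.9, 91.4 and 89.6 CPM in CKO libraries, against 91.8, 85 and 81.5 CPM in Control libraries, which overlapped.

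Psat1 carries out the next step of that route. It was at 29.7, 33.3 and 24 CPM in MZ CKO libraries, against 22.8, 28.9 and 25.3 CPM in MZ Control libraries, and at 23.4, 28.2 and 24.1 CPM in FO CKO, against 20.4, 24.5 and 24.7 CPM in FO Control libraries. The genotypes overlapped in both cell types, and the MZ log2 difference was 0.18 (SE 0.13, 95% interval -0.07 to 0.44; edgeR adjusted p = 1).

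Shmt2, the mitochondrial enzyme that splits serine into glycine and a one-carbon unit, was at 114, 136 and 113 CPM in MZ CKO libraries, against 102, 101 and 101 CPM in MZ Control libraries. Shmt2 in FO B cells was at 83.6, 91.6 and 88 CPM in CKO libraries, against 79.1, 77 and 71.1 CPM in Control libraries. All CKO libraries stood above all Control libraries in both cell types. The MZ log2 difference was 0.26 (SE 0.08, 1.2-fold) and did not pass the edgeR test (adjusted p = 1, unadjusted p = 0.009671; adjusted range over the alternatives 0.2983 to 1). Its FO log2 value was 0.21 (SE 0.07).

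MZ CKO replicate 2 held the highest Psat1, Phgdh and Shmt2 levels of its group. The 12 cell cycle genes, none of them at 0 in any group, summed to 530, 997 and 416 CPM in MZ CKO libraries, against 411, 610 and 391 CPM in MZ Control libraries, with the same library highest. The median log2 difference of these genes was 0.52 with 12 of 12 positive, and -0.05 with 3 of 12 positive without that library. The FO sums were 369, 778 and 334 CPM in CKO libraries, against 432, 506 and 402 CPM in Control libraries. Without MZ CKO replicate 2 the MZ log2 difference was 0.23 for Phgdh and 0.17 for Shmt2, while that of Asns was 1.15. The part of cycling cells in these values was not tested.

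Sesn2, which encodes a leucine sensor that restrains the growth kinase mTORC1, was at 27.3, 32.6 and 27.4 CPM in MZ CKO libraries, against 29.4, 26.5 and 29.7 CPM in MZ Control libraries. Sesn2 in FO B cells was at 13.3, 18 and 15.9 CPM in CKO libraries, against 17.5, 16.7 and 15.4 CPM in Control libraries. The genotypes overlapped in both, with an MZ log2 difference of 0.03 (SE 0.10, 95% interval -0.16 to 0.23; edgeR adjusted p = 1).

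**Figure D2:**
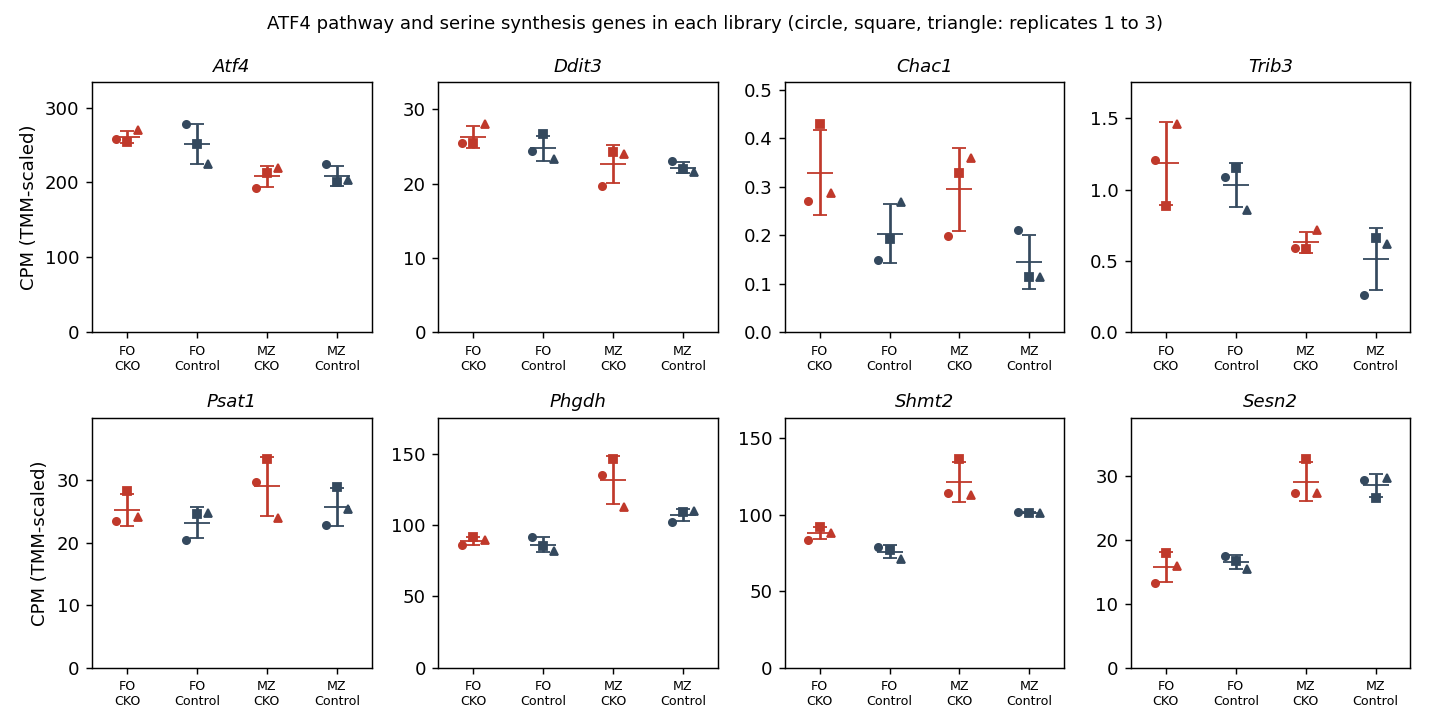
Levels of the other 8 genes in CPM (TMM-scaled, linear axes from 0) in each library. Symbols are replicates 1 to 3, dashes are means and error bars are SD of 3, with CKO libraries in red and Control libraries in dark blue. In the MZ columns the CKO points of Phgdh (113 to 146 CPM) and Shmt2 (113 to 136 CPM) lie above the Control points, and the other 6 genes overlap between genotypes.

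Between genotypes, then, 3 of the 9 genes (Asns, Phgdh and Shmt2) had MZ CKO libraries entirely above MZ Control libraries, and none had them entirely below, where 3.25% and 4.3% of all genes tested did so. None of the 8 tested passed in MZ B cells by edgeR, DESeq2 or limma-voom, which called 0.0793%, 0.249% and 0.0396% of all genes. At an unadjusted p under 0.05 there were 3 of 8 by edgeR, where 2.9% of all genes had one. In FO B cells Asns, Chac1 and Shmt2 had CKO libraries above all Control libraries, as had 4.78% of all 17777 genes tested. The FO contrast was used in choosing the genes, and nothing is read from that count. The MZ libraries share their animal numbers with the FO libraries, and the genes were chosen with earlier results of these data known. Phgdh and Shmt2 also varied together (r = 0.94 over the 12 libraries). The MZ counts are therefore a description too.

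The genotype effects were not shown to differ between the cell types. By the edgeR interaction test over all 12 libraries (18546 genes), the MZ effect minus the FO effect was log2 0.18 (SE 0.59) for Asns, 0.05 (SE 0.11) for Shmt2 and 0.26 (SE 0.12) for Phgdh. None of the 9 genes passed by edgeR, DESeq2 or limma-voom, each of which called 0% of all genes. Phgdh was the only one of the 9 with an unadjusted p under 0.05 by edgeR (adjusted p = 1), as had 1.28% of all genes. The FO libraries of this test were used in the choice of Asns.

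**Figure D3:**
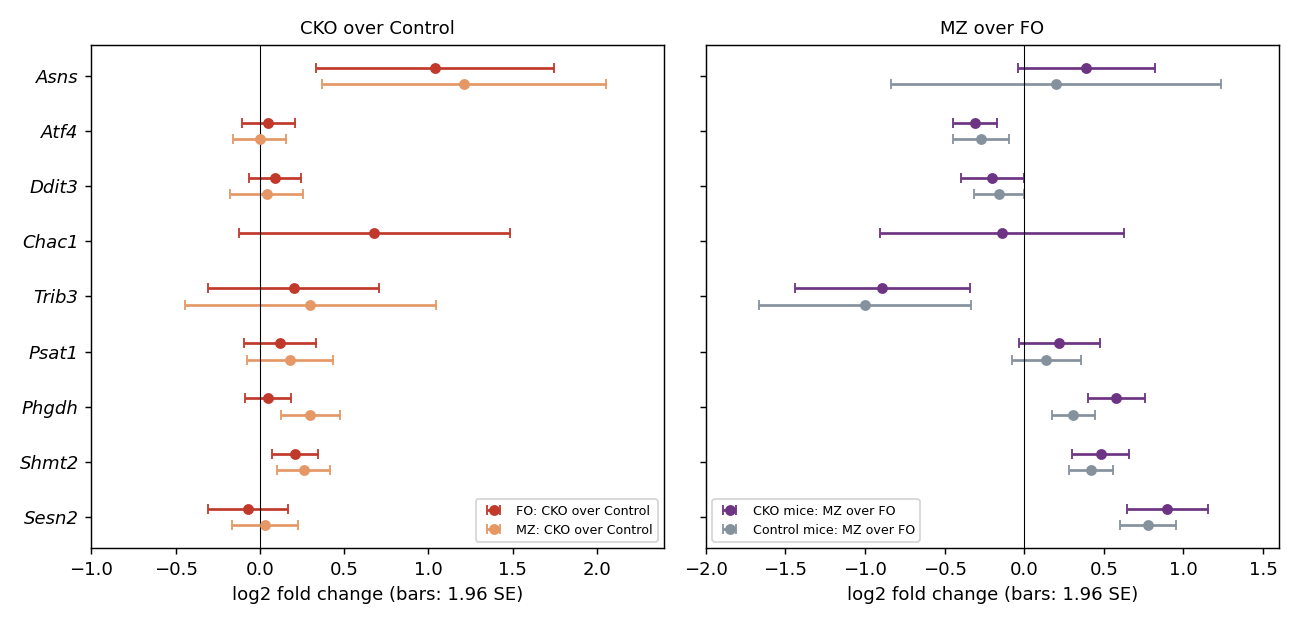
Log2 fold changes of the 9 genes, with CKO over Control on the left and MZ over FO on the right; bars are approximate 95% intervals. Asns lies to the right of 0 in both genotype comparisons (1.04 in FO and 1.21 in MZ), and Sesn2, Shmt2 and Phgdh lie to the right of 0 in both cell type comparisons, against Atf4 and Trib3 on the left. Chac1 has no value where it failed the filter on low counts.

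The comparison of MZ with FO B cells within a genotype asks how the pathway differs between these B cell types. In Control mice Sesn2, Shmt2 and Phgdh rose and Atf4 and Trib3 fell in MZ B cells. Sesn2 averaged 28.5 ± 1.75 CPM in MZ Control and 16.5 ± 1.06 CPM in FO Control libraries (log2 0.78, SE 0.09, edgeR adjusted p = 6.173e-05). Shmt2 averaged 101 ± 0.748 CPM in MZ Control and 75.7 ± 4.12 CPM in FO Control libraries (log2 0.42, SE 0.07, edgeR adjusted p = 0.0006156). Phgdh averaged 107 ± 4.43 CPM in MZ Control and 86.1 ± 5.22 CPM in FO Control libraries (log2 0.31, SE 0.07, edgeR adjusted p = 0.006373). These 3 passed under every alternative run.

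Atf4 averaged 209 ± 12.8 CPM in MZ Control and 251 ± 26.8 CPM in FO Control libraries, a log2 change of -0.27 (SE 0.09, edgeR adjusted p = 0.03589). Trib3 averaged 0.513 ± 0.218 CPM in MZ Control and 1.03 ± 0.156 CPM in FO Control libraries, a log2 change of -1 (SE 0.34, edgeR adjusted p = 0.04739). No MZ Control library of either gene reached the lowest FO Control library, which held for 19.8% of all genes. Both calls were close to the threshold: with limma-voom the adjusted p was 0.05494 for Atf4 and 0.05463 for Trib3, and without robust dispersions in edgeR it was 0.05145 and 0.05988. DESeq2 gave 0.01085 for Atf4 and 0.09672 for Trib3. With the animal number as a block it was 0.0002061 and 0.002194. Leaving out FO Control replicate 1 (adjusted p = 0.1465) or 2 (0.08163), or MZ Control replicate 2 (0.08863) or 3 (0.1164), ended the Atf4 call by edgeR. Leaving out FO Control replicate 1 (0.1099), 2 (0.1311) or 3 (0.0617), or MZ Control replicate 1 (0.1288) or 3 (0.06736), ended the Trib3 call.

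Of the 8 genes tested in Control mice, 3 were higher and 2 lower, where 14.9% and 13% of all 17830 genes were. Ddit3 lay lower in all 3 MZ Control libraries than in any FO Control library but did not pass (log2 -0.16, SE 0.08, edgeR adjusted p = 0.1857). Asns was not called between the cell types of Control mice (log2 0.20, SE 0.53, edgeR adjusted p = 0.834): it was lower in MZ than in FO B cells of animal 1505 (3.39 against 3.81 CPM) and higher in animals 1507 (8.59 against 8.32 CPM) and 2003 (10.5 against 7.37 CPM).

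In CKO mice Sesn2 averaged 29.1 ± 3.05 CPM in MZ CKO libraries and 15.7 ± 2.34 CPM in FO CKO libraries, a log2 change of 0.90 (SE 0.13, edgeR adjusted p = 0.001408). Phgdh averaged 131 ± 16.9 CPM in MZ CKO and 89 ± 2.83 CPM in FO CKO libraries, a log2 change of 0.58 (SE 0.09, edgeR adjusted p = 0.002887), and Shmt2 averaged 121 ± 13.3 CPM in MZ CKO and 87.7 ± 3.98 CPM in FO CKO libraries, a log2 change of 0.48 (SE 0.09, edgeR adjusted p = 0.004589). Atf4 averaged 208 ± 13.4 CPM in MZ CKO and 261 ± 8.17 CPM in FO CKO libraries, a log2 change of -0.31 (SE 0.07, edgeR adjusted p = 0.01556; 0.0612 without FO CKO replicate 3). Of the 9 genes, 3 rose and 1 fell, where 10.5% and 7.78% of all 17712 genes did. Summed T cell markers ranged from 168 to 266 CPM in MZ CKO and from 241 to 351 CPM in FO CKO libraries, which overlapped. They were at 198 to 290 CPM in MZ Control and 341 to 397 CPM in FO Control libraries, which did not, and their part in the lower Atf4 and Trib3 was not tested.

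With the animal number as a block, Asns and Trib3 were called in CKO mice too, which gave 4 genes higher and 2 lower, where 19.2% and 16.6% of all genes were. Asns was higher in the MZ than in the FO library of all 3 CKO animals, 14.6 against 9.6 CPM in animal 1512, 18.7 against 17.4 CPM in animal 1514 and 18.5 against 13 CPM in animal 2002. Its log2 difference was 0.42 with the block (edgeR adjusted p = 0.002488) and 0.39 without it (SE 0.22, adjusted p = 0.272; 0.04798 without FO CKO replicate 2). The FO CKO libraries in this comparison had taken part in the choice of Asns. Trib3 averaged 0.631 ± 0.074 CPM in MZ CKO and 1.19 ± 0.29 CPM in FO CKO libraries, a log2 difference of -0.89 without the block (SE 0.28, edgeR adjusted p = 0.05359) and -0.88 with it (adjusted p = 0.012).

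Other genes of the pathway were taken from lists of ATF4 partners and feedback genes, eIF2 kinases and one-carbon enzymes. Lists of other amino acid enzymes, amino acid transporters, tRNA synthetases and amino acid sensors of mTORC1 were used too. By edgeR, DESeq2 and limma-voom alike, no member of any of these lists passed between genotypes in either cell type. DESeq2 and limma-voom called 0.272% and 0.0844% of all genes in FO B cells. The 20 cytosolic aminoacyl-tRNA synthetases, which load amino acids onto tRNA, all had a positive MZ log2 difference, with a median of 0.12, where 50% of all genes did and their median was 0. Of these, 2 had an unadjusted p under 0.05 by edgeR. Mars, the methionyl enzyme that overlaps Ddit3, averaged 99.6 ± 4.19 CPM in MZ CKO and 82.4 ± 5.09 CPM in MZ Control libraries (log2 0.28, SE 0.07, edgeR adjusted p = 0.985). Wars, the tryptophanyl enzyme, averaged 75.6 ± 9.38 CPM in MZ CKO and 64.1 ± 4 CPM in MZ Control libraries (log2 0.24, SE 0.10, edgeR adjusted p = 1).

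Summed over the 20 synthetases, the level was 3150, 3160 and 2930 CPM in MZ CKO libraries, against 2680, 2960 and 2880 CPM in MZ Control libraries. MZ CKO replicate 3 lay below MZ Control replicate 2, so the groups overlapped. With plain library totals 19 of 20 were positive with a median of 0.09, where the median of all genes was -0.03. Without MZ Control replicate 1, from animal 1505, 18 of 20 were positive and the median was 0.07. In FO B cells 13 of the 20 were positive with a median of 0.02, where 52% of all genes were. The sums there were 2830, 2870 and 2790 CPM in CKO libraries, against 2800, 2820 and 2730 CPM in Control libraries.

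The ATF4 partners and feedback genes did not share a direction between genotypes. In MZ B cells 10 of 20 tested had a positive log2 difference (median -0.01), and in FO B cells 12 of 19 (median 0.03). At an unadjusted p under 0.05 there were 0 by edgeR in either cell type. Atf5, a relative of ATF4, averaged 5.23 ± 0.569 CPM in MZ CKO and 4.19 ± 0.5 CPM in MZ Control libraries (log2 0.33, SE 0.18, edgeR adjusted p = 1). Atf3, another stress-induced member of that family, averaged 1.55 ± 0.332 CPM in MZ CKO and 1.98 ± 0.161 CPM in MZ Control libraries (log2 -0.35, SE 0.24, edgeR adjusted p = 1).

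Of the 14 serine, glycine and one-carbon enzymes tested in MZ B cells, 10 had a positive difference between genotypes, with a median log2 of 0.07. Gcsh, a subunit of the glycine cleavage system, averaged 14.3 ± 1.69 CPM in MZ CKO and 12.2 ± 0.222 CPM in MZ Control libraries (log2 0.24, SE 0.13, edgeR adjusted p = 1). Among the 17 eIF2 kinases and related genes, 12 were positive with a median of 0.04, and Eif2ak4, the kinase GCN2 that senses uncharged tRNA, averaged 78.1 ± 0.812 CPM in MZ CKO and 70.5 ± 3.6 CPM in MZ Control libraries (log2 0.15, SE 0.07, edgeR adjusted p = 1). Of the 22 amino acid transporters 13 were positive (median 0.02), and of the 28 amino acid sensing genes 14 were (median 0). Slc7a5, a carrier of large neutral amino acids, averaged 42.7 ± 8.72 CPM in MZ CKO and 36.6 ± 2.74 CPM in MZ Control libraries (log2 0.23, SE 0.13, edgeR adjusted p = 1). Of the 25 other amino acid enzymes 18 were positive (median 0.06), among them Ahcy, which clears S-adenosylhomocysteine, at 75.2 ± 10.8 CPM in MZ CKO and 62.9 ± 5.52 CPM in MZ Control libraries (log2 0.26, SE 0.11, edgeR adjusted p = 1).

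**Figure D4:**
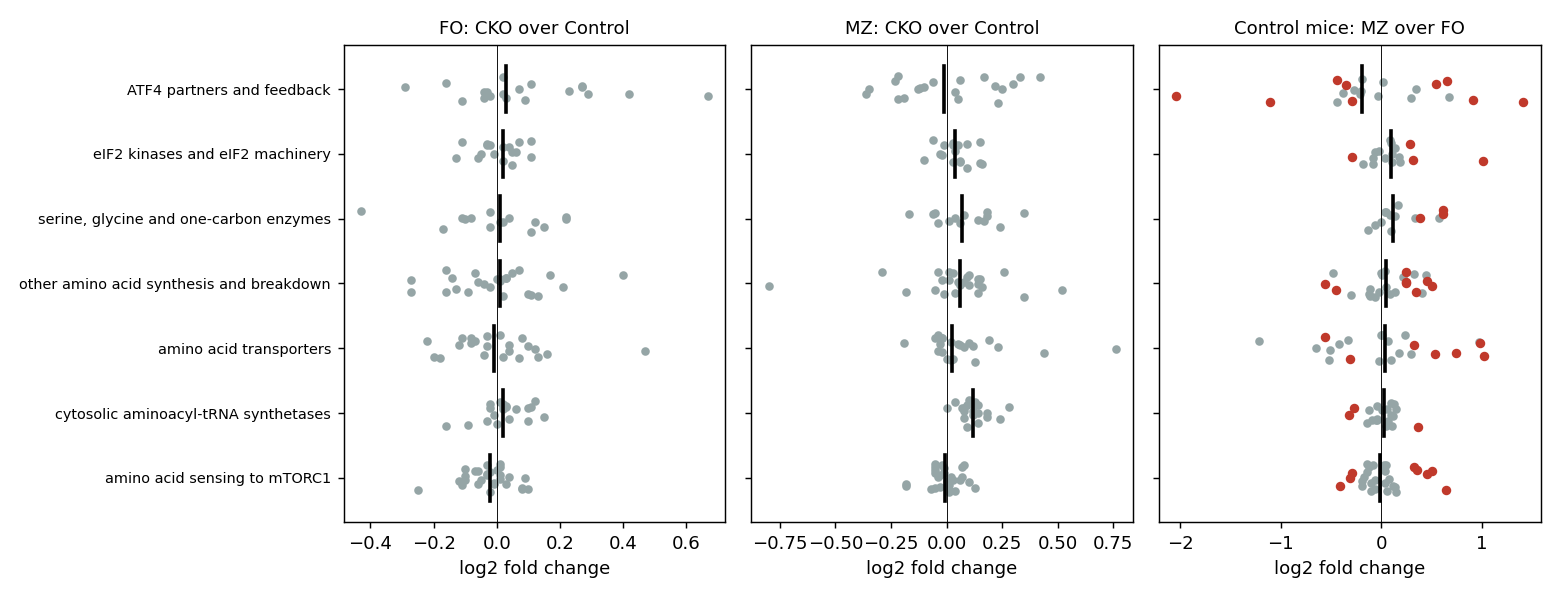
Log2 fold changes of the genes of 7 pathway lists in the FO and MZ genotype comparisons and between MZ and FO B cells of Control mice. Points are genes, red where the edgeR adjusted p was under 0.05 and grey otherwise, black bars are list medians, and the panels have their own axis ranges. No point is red in the genotype panels; in the MZ genotype panel the synthetases have a median of 0.12.

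Between MZ and FO B cells of Control mice 42 of the 146 genes tested in these 7 lists were called, or 28.8%, close to the 27.9% of all genes. In CKO mice 33 of 146 were, or 22.6%, where 18.3% of all genes were. The counts below stand beside all-gene shares of 14.9% higher and 13% lower in Control mice and 10.5% higher and 7.78% lower in CKO mice. In the one-carbon list 3 of 14 (21.4%) were higher and 0 lower, among them Shmt1, the cytosolic counterpart of Shmt2, at 24 ± 1.85 CPM in MZ Control and 15.7 ± 0.978 CPM in FO Control libraries (log2 0.61, SE 0.09, edgeR adjusted p = 0.0005645). Gcsh averaged 12.2 ± 0.222 CPM in MZ Control and 7.97 ± 1.08 CPM in FO Control libraries (log2 0.61, SE 0.13, edgeR adjusted p = 0.00381). In CKO mice 4 of 14 (28.6%) were higher and 0 lower, and Psph, which completes serine synthesis, averaged 19.3 ± 1.97 CPM in MZ CKO and 14.5 ± 0.531 CPM in FO CKO libraries, a log2 change of 0.43 (SE 0.11, edgeR adjusted p = 0.02573). The list median was 0.12 in Control and 0.21 in CKO mice, beside 0.01 and -0.01 for all genes.

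The list of ATF4 partners and feedback genes, which also holds enzymes such as Pck2, was split. In Control mice 4 of 20 (20%, beside 14.9% of all genes) were higher and 5 (25%, beside 13%) lower, with a median of -0.20. Without FO Control replicate 1 or 2 only 1 was higher, and without FO Control replicate 3 or any 1 MZ Control library 2 were. Ddit4, an inhibitor of mTORC1, averaged 118 ± 7.34 CPM in MZ Control and 80.5 ± 7.28 CPM in FO Control libraries (log2 0.54, SE 0.08, edgeR adjusted p = 0.0003537). Trib2, a relative of Trib3, averaged 28.5 ± 7.65 CPM in MZ Control and 117 ± 18 CPM in FO Control libraries (log2 -2.04, SE 0.23, edgeR adjusted p = 0.002533). Pck2, the mitochondrial phosphoenolpyruvate carboxykinase, averaged 79.2 ± 4.79 CPM in MZ Control and 107 ± 7.66 CPM in FO Control libraries (log2 -0.44, SE 0.07, edgeR adjusted p = 0.00109). In CKO mice 0 of 20 were higher and 5 (25%, beside 7.78% of all genes) lower, 3 to 6 with 1 library left out, with Trib2 at 35 ± 8.73 CPM in MZ CKO and 119 ± 18.2 CPM in FO CKO libraries, a log2 change of -1.75 (SE 0.22, edgeR adjusted p = 0.004884). With the animal number as a block 6 were higher and 8 lower in Control mice, where 22.4% and 21.3% of all genes were, and 5 higher and 8 lower in CKO mice, where 19.2% and 16.6% were.

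Of the 17 eIF2 kinases and related genes, 3 were higher (17.6%, beside 14.9% of all genes) and 1 lower (5.88%, beside 13%) in MZ B cells of Control mice. Impact, an inhibitor of the kinase GCN2, averaged 43.5 ± 1.75 CPM in MZ Control and 21.5 ± 2.15 CPM in FO Control libraries (log2 1.01, SE 0.09, edgeR adjusted p = 6.15e-06). Eif2ak4, the gene of GCN2, averaged 70.5 ± 3.6 CPM in MZ Control and 86.1 ± 2.95 CPM in FO Control libraries (log2 -0.29, SE 0.07, edgeR adjusted p = 0.006423). In CKO mice 3 were higher (17.6%, beside 10.5% of all genes) and 0 lower, and Impact averaged 40.5 ± 8.31 CPM in MZ CKO and 22.6 ± 2.82 CPM in FO CKO libraries, a log2 change of 0.86 (SE 0.16, edgeR adjusted p = 0.007049).

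Of the 22 transporters, 5 were higher (22.7%, beside 14.9% of all genes) and 2 lower (9.09%, beside 13%) in MZ B cells of Control mice. In CKO mice 4 were higher (18.2%, beside 10.5%) and 2 lower (9.09%, beside 7.78%). Slc38a2, a carrier of small neutral amino acids, averaged 111 ± 0.714 CPM in MZ Control and 163 ± 4.65 CPM in FO Control libraries (log2 -0.56, SE 0.06, edgeR adjusted p = 3.773e-05). Slc36a4, an amino acid carrier, averaged 19.3 ± 1.39 CPM in MZ Control and 9.76 ± 1.34 CPM in FO Control libraries (log2 0.98, SE 0.12, edgeR adjusted p = 9.424e-05). Among the 25 other amino acid enzymes 6 were higher (24%) and 2 lower (8%) in Control mice. In CKO mice 7 were higher (28%, beside 10.5% of all genes) and 0 lower (beside 7.78%). Got2, the mitochondrial aspartate aminotransferase, averaged 123 ± 7.98 CPM in MZ Control and 87.2 ± 1.5 CPM in FO Control libraries (log2 0.50, SE 0.07, edgeR adjusted p = 0.0002154). Glul, glutamine synthetase, averaged 72.7 ± 7.51 CPM in MZ Control and 99 ± 5.82 CPM in FO Control libraries (log2 -0.45, SE 0.08, edgeR adjusted p = 0.001578). Aspartate and glutamine are the substrates of Asns.

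Among the synthetases 1 of 20 (5%, beside 14.9% of all genes) was higher and 2 (10%, beside 13%) lower in Control mice. In CKO mice 3 (15%, beside 10.5%) were higher and 1 (5%, beside 7.78%) lower. Dars, the aspartyl enzyme, averaged 95.7 ± 4 CPM in MZ Control and 74.6 ± 6.8 CPM in FO Control libraries (log2 0.36, SE 0.08, edgeR adjusted p = 0.004493). Of the 28 amino acid sensing genes 5 (17.9%) were higher and 3 (10.7%) lower in Control mice. In CKO mice 2 (7.14%, beside 10.5%) were higher and 2 (7.14%, beside 7.78%) lower. Sesn3, a relative of Sesn2, averaged 133 ± 6.52 CPM in MZ Control and 84.8 ± 6.99 CPM in FO Control libraries (log2 0.64, SE 0.07, edgeR adjusted p = 6.809e-05). Tsc1, which restrains mTORC1, averaged 63.3 ± 0.238 CPM in MZ Control and 83.9 ± 3.7 CPM in FO Control libraries (log2 -0.41, SE 0.06, edgeR adjusted p = 0.0005542).

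The genes whose levels were most like those of Asns were found by the Pearson correlation of log2(CPM + 1) over the 12 libraries, among 9571 genes of at least 5 CPM on average. The points share animals and genotype groups, so the values describe these libraries. Whrn, which encodes the scaffold protein whirlin, came first (r = 0.89), followed by Rgs18, a regulator of G protein signalling (r = 0.84), and the transcript BC018473 (r = 0.83). The next were the anaphase-promoting complex subunit gene Anapc5 (0.82), the sialyltransferase gene St6galnac2 (0.81), the mitochondrial genes Sfxn2 and Htra2 (0.80 each) and the adenosine kinase gene Adk (0.80). Whrn was at 15.3, 26.8 and 17.8 CPM in FO CKO libraries, against 0.743, 15.4 and 14.1 CPM in FO Control libraries. Whrn in MZ B cells was at 26.1, 52 and 31.7 CPM in CKO libraries, against 2.7, 25.3 and 33.8 CPM in Control libraries. Its low values fell on animal 1505, which was also lowest for Asns.

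None of the ATF4 pathway genes was among those 8. Of the 6 that reached 5 CPM, Psat1 was the closest to Asns (r = 0.67, rank 68 of 9571), then Shmt2 (0.51) and Phgdh (0.45). Sesn2 (0.18), Ddit3 (0.05) and Atf4 (-0.26) were far from it. With the mean of each group taken off, r was 0.59 for Psat1 and 0.07 for both Shmt2 and Phgdh. It was then 0.18 for Sesn2, 0.06 for Ddit3 and -0.53 for Atf4. Among the 8 genes it was 0.93 for Whrn, 0.87 for Sfxn2, 0.81 for BC018473 and 0.72 for Htra2. Anapc5 (0.65) and Rgs18 (0.62) followed, and Adk (0.49) and St6galnac2 (0.46) lay below Psat1 on this measure.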

How the data were processed

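Per the submitters' processing notes, reads were aligned with TopHat and counted with HTSeq on build GRCm38, with DESeq2 also named; versions and the annotation release are not given in the sources used here. The deposited values are raw counts per Ensembl gene, whole numbers without normalization, from RNA libraries made from 0.1 ug of total RNA with the TruSeq RNA kit per the labels. Entries that name no gene held 43.2 to 50.4% of listed reads per library and were left out. Symbols and coordinates came from Gencode M21 (45143 of 46078 genes matched) and promoter sequences from RefSeq, both on GRCm38.

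The tests ran in edgeR 4.0.16 under R 4.3.3, with filterByExpr, TMM scaling and the quasi-likelihood F test with robust dispersions, two-sided, with Benjamini-Hochberg adjustment over all genes tested and a call at an adjusted p under 0.05. Each comparison used the libraries of its own groups, and the interaction used all 12. CPM are TMM-scaled, and SEs come from the fold change on the log2 scale over the root of F; approximate 95% intervals assume a normal error. Alternatives were a replicate block, DESeq2 1.42.0, limma-voom (limma 3.58.1), DESeq2 size factors, no filter on low counts, dispersions without the robust option and each library left out in turn. The main edgeR fits were also run on simulated counts of independent libraries, without a block. Those runs do not cover the block fits or shared animals, and no result above rests on them.

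Same-numbered FO and MZ libraries carry 1 animal number, a pairing read from the labels. FO CKO and FO Control libraries of the same replicate number come from different animals, and the labels link them by nothing beyond that number. They deviated together from their group means (r = 0.135, 0.398 and 0.379), and the block there called Asns. The rule for pairing, an r over 0.1 for each number, was applied to these same data. The block is therefore not a pairing given by the design.

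The 9 genes and the lists (21 lists, 268 genes) were chosen with earlier results of these data known. Named are the 9 genes, up to 4 called genes per pathway list and comparison or up to 2 with the smallest p where none was called, of which the text gives examples, and the 8 genes most like Asns. Replicates are separate animals only as far as the animal numbers of the labels say.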

Additional observations from a re-analysis of the deposited data

How the results depend on the processing

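In FO B cells 16 genes were called between genotypes, 25 with the replicate block, 39 with DESeq2, 140 with no filter on low counts, and 11 to 31 with 1 library left out (31 without FO CKO replicate 3). In MZ B cells 14 were called, 38 with DESeq2, 7 with limma-voom, 7 without robust dispersions, 95 with no filter, and 5 to 34 with 1 library left out (7, 5 and 9 without MZ Control replicates 1, 2 and 3, and 34 without MZ CKO replicate 3). The MZ replicate block called 57, but the replicate numbers did not meet the rule for pairing MZ libraries across genotypes, an r over 0.1 for every number (-0.108, 0.428 and 0.411 for numbers 1, 2 and 3), and the block called none of the 9 genes there. Between MZ and FO B cells 4977 genes were called in Control mice (7805 with the animal block) and 3243 in CKO mice (6333 with the block, 1898 to 2884 with 1 library left out, the lowest without FO CKO replicate 1). The interaction called 0 genes and 4 with the block, none of them among the 9. The cause of these shifts was not tested.

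Asns kept a positive genotype difference in each alternative run, log2 0.77 to 1.25 in FO and 0.86 to 1.54 in MZ B cells. With 1 library left out the FO genotype value changed sign for Atf4 (-0.02 to 0.13) and Sesn2 (-0.18 to 0.04), and the MZ genotype value for Atf4 (-0.03 to 0.05), Ddit3 (-0.01 to 0.13), Trib3 (-0.02 to 0.52) and Sesn2 (-0.05 to 0.09). The same held between MZ and FO B cells for Asns in Control mice (-0.12 to 0.55) and Chac1 in CKO mice (-0.30 to 0.09). It also held for the interaction of Asns (-0.17 to 0.50), Atf4 (-0.12 to 0.03), Ddit3 (-0.10 to 0.04), Trib3 (-0.21 to 0.34), Psat1 (-0.05 to 0.19) and Shmt2 (-0.04 to 0.10). Plain library totals, an alternative chosen after seeing the data, gave -0.03 for Atf4 in MZ B cells and -0.97 for Trib3 between MZ and FO B cells of CKO mice (edgeR adjusted p = 0.03797). With 116 counts of Chac1 and 406 of Trib3 in all, changes of these genes are limited by depth.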

Other observations

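Of 15 genes of the other arms of the unfolded protein response, 8 were higher and 1 lower in MZ than in FO B cells of Control mice, where 14.9% and 13% of all genes were, and 7 and 1 in CKO mice, where 10.5% and 7.78% were. Pdia4, a disulfide isomerase of the endoplasmic reticulum, averaged 1310 ± 28.5 CPM in MZ Control and 284 ± 17.3 CPM in FO Control libraries (log2 2.20, SE 0.07, edgeR adjusted p = 6.185e-09). Herpud1, a degradation factor of that compartment, was lower, at 136 ± 4.62 CPM in MZ CKO and 181 ± 5.34 CPM in FO CKO libraries, a log2 change of -0.39 (SE 0.06, edgeR adjusted p = 0.002573).

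Of 7 mitochondrial stress genes, 3 were higher and 0 lower in MZ B cells of Control mice, where 14.9% and 13% of all genes were. Hspe1, the mitochondrial co-chaperonin, averaged 80.3 ± 7.87 CPM in MZ Control and 53.6 ± 4.65 CPM in FO Control libraries (log2 0.58, SE 0.09, edgeR adjusted p = 0.0005143). Between genotypes in FO B cells it was at 67.1 ± 3.15 CPM in CKO and 53.6 ± 4.65 CPM in Control libraries (log2 0.32, SE 0.08, edgeR adjusted p = 0.7344). Its MZ genotype effect minus the FO effect was log2 -0.28 (SE 0.11, edgeR unadjusted p = 0.02791), which did not pass after adjustment.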
